A study of Arabidopsis thaliana with 2 samples.

Results

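Procambium nuclei of the Arabidopsis inflorescence were picked out of 2 single-nucleus RNA-seq libraries by the transcripts of 7 genes, and numbered 744 of 8942 nuclei. The members were chosen by measured values. In each library the nuclei with at least 1000 detected nuclear genes were ranked by the share of their unique molecular identifiers (UMIs, one per captured transcript) that came from PXY, ATHB8, WAT1, WOX4, MOL1, TMO5 and T5L1. A member stood in the top 10% of its library, had at least 2 of the 7 genes detected and held no UMI of CESA4, CESA7 or CESA8, which make the cellulose of secondary cell walls. This gave 366 of 4397 nuclei at day 3 (8.32%, 95% Clopper-Pearson interval 7.52 to 9.18) and 378 of 4545 at day 4 (8.32%, interval 7.53 to 9.16). The equal shares follow from the rule, which takes a fixed part of every library.

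The plants of both libraries were Ler of the genotype pAP1:AP1-GR ap1-1 cal-1. Without AP1 and CAL function they form masses of meristems, and dexamethasone (DEX), given daily to the main inflorescences, sends the fusion of AP1 and GR to the nucleus so that flowers start at one time. One induced group was collected at day 3, given as stage 4 of flower development, and the other at day 4, given as stage 5, with 1 library of pooled inflorescences each. The collection protocol of the day 3 sample speaks of the fourth day, unlike its title. The libraries also had different sequencers and numbers of PCR cycles, and these cannot be told apart from the stage. The labels call the source flower meristem and the tissue inflorescence, and whole inflorescences were ground.

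Procambium is the stem cell tissue of the vascular bundle, from which xylem forms on one side and phloem on the other. Auxin, read out through the response factor MP, starts its identity and induces ATHB8, TMO5 and T5L1. The bHLH proteins TMO5 and T5L1 act with LHW to switch on cytokinin synthesis, and the receptor kinase PXY binds the phloem-derived peptide made from CLE41 and CLE44 and keeps the cells dividing through WOX4. WAT1 exports auxin from the vacuole, and MOL1 is a receptor-like kinase that restrains the cambium of the stem.

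The members held 990647 UMIs at day 3 and 927112 at day 4, which set the precision of every level below. Their median depth was 1959 UMIs at day 3 and 2040 at day 4, against 1827 and 1787 in the remaining nuclei of the same libraries. Levels are UMIs summed over nuclei and scaled to CPM, counts per 1000000, of all nuclear-gene UMIs, with exact 95% Poisson intervals. Both these and the binomial intervals cover counting error only. Each day has a single library, so that nothing was tested. A gene is called higher or lower by size alone, at least 2-fold on the log2((CPM + 1) ratio) scale, which understates the change of low genes. Nuclei of both libraries shared 6 barcodes.

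The limit of the top 10% lay at 15.6 rule UMIs per 10000 at day 3 and at 17.8 at day 4. The member nearest to it had 15.6 at day 3 and 17.8 at day 4, and the nearest nucleus left outside had 15.6 and 17.7. Within 10% above the limit lay 30 members at day 3 (8.20%) and 15 at day 4 (3.97%), and 45 and 26 nuclei that met the other conditions lay within 10% below it. The median score of the members was 35.4 per 10000 at day 3 and 41.6 at day 4, while 65.3% and 66.3% of the remaining nuclei held no UMI of any rule gene. The score was mostly WAT1, which gave 55.1% of the rule UMIs of the members at day 3 and 56.6% at day 4. MOL1 gave 1.02% and 0.822%. WAT1 was detected in 326 of the 366 members of day 3 and 332 of the 378 of day 4, PXY in 223 and 260, ATHB8 in 213 and 224, and MOL1 in 40 and 35.

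Since the 7 genes chose the nuclei, their high levels in the members are no result. Each was therefore left out in turn, the nuclei were chosen again by the other 6 genes, and the gene left out was read in nuclei it had not chosen. In both libraries 6 of 7 genes were at least 2-fold higher in the nuclei chosen without them. T5L1 stood at 240.1 CPM (interval 211 to 273) in the 362 nuclei chosen without it at day 3 and at 18.9 CPM (16.3 to 21.8) in the rest. At day 4 its levels were 213 CPM (185 to 245) and 12.6 CPM (10.4 to 15.1). ATHB8, a class III HD-ZIP transcription factor of the earliest procambium, was at 499 against 44.6 CPM at day 3 and at 632 against 48.0 CPM at day 4. The log2 ratios of PXY were 2.83 and 3.18, those of WOX4 2.66 and 2.71, those of TMO5 2.26 and 2.50, and those of WAT1 3.41 and 3.57. The exception was MOL1. It stood at 28.6 CPM (19.0 to 41.4) in the chosen nuclei and 32.8 CPM (29.3 to 36.5) in the rest at day 3, and at 31.4 CPM (21.0 to 45.1) and 32.9 CPM (29.3 to 36.8) at day 4. Its log2 ratio of -0.19 had an interval of -0.81 to 0.36 at day 3, and that of -0.06 had one of -0.67 to 0.49 at day 4, and both intervals lie within 2-fold. Of the 7 genes that name these nuclei, MOL1 did not go with the others in either library.

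**Figure D1:**
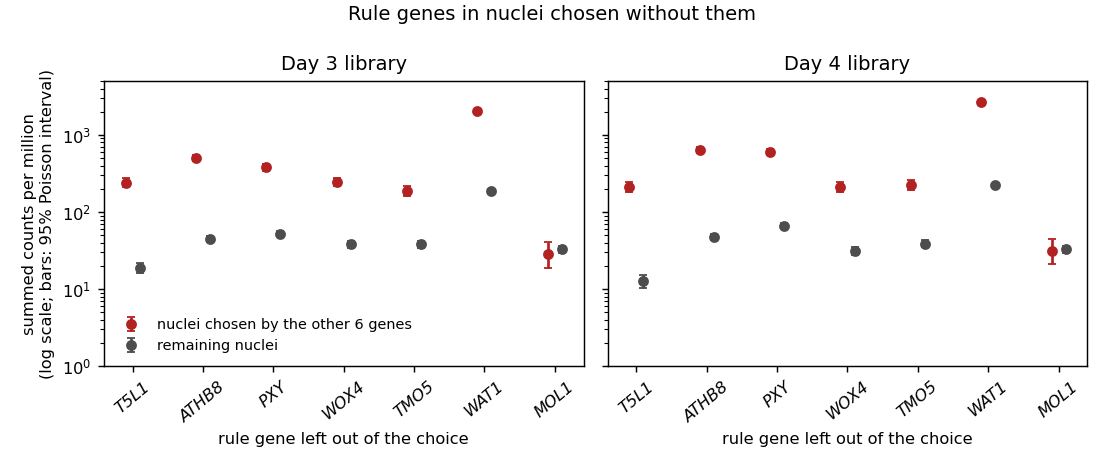
Level of each rule gene, in CPM on a log axis, in the nuclei chosen by the other 6 genes (red) and in the remaining nuclei (grey), with 95% Poisson intervals, for the day 3 library (left) and the day 4 library (right). The red point lies far above the grey one for T5L1, ATHB8, PXY, WOX4, TMO5 and WAT1, and the intervals overlap for MOL1 alone.

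The rule genes also met in the same nuclei to very different degrees. For every pair, the share of nuclei with one gene among the nuclei with the other was divided by its share among all nuclei of the library, after each nucleus had been thinned to 1000 UMIs. Over the 15 pairs of the 6 genes without MOL1 this ratio had a median of 3.64 at day 3 and 3.32 at day 4, and its counting interval lay above 1 in 14 of 15 pairs in each library. T5L1 and ATHB8 met most, with ATHB8 in 39.3% of the 122 T5L1 nuclei of day 3 and in 5.32% of all nuclei, a ratio of 7.39 (5.45 to 9.80). At day 4 the ratio of this pair was 6.43 (4.48 to 8.94). The pair below the others was T5L1 and WOX4, a homeobox gene that acts below PXY. It shared 6 nuclei at day 3, a ratio of 1.40 (0.51 to 3.04), and 3 nuclei at day 4, a ratio of 1.03 (0.21 to 3.02), while WOX4 and WAT1 shared 79 and 71 nuclei, at ratios of 3.64 and 3.32. The 6 pairs with MOL1 ranged from 0.81 to 1.92 at day 3 and from 0.39 to 1.02 at day 4, and the interval lay above 1 in 0 of 6 pairs in each library.

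**Figure D2:**
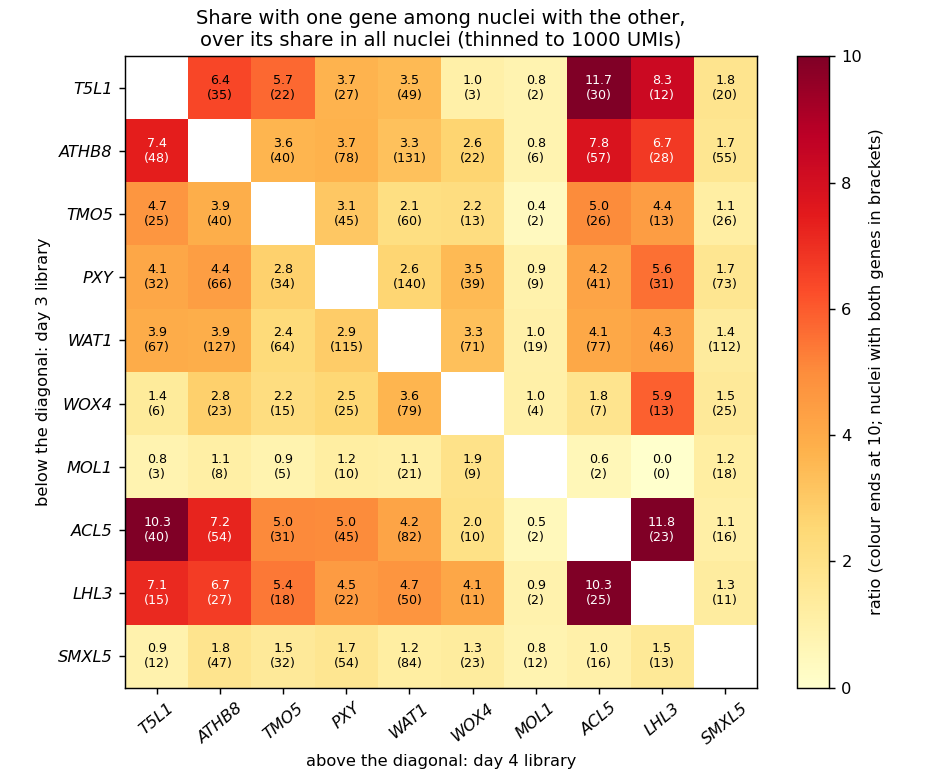
Share of nuclei with one gene among nuclei with the other, divided by its share among all nuclei thinned to 1000 UMIs, for the 7 rule genes and for ACL5, LHL3 and SMXL5. The day 3 library is below the diagonal and the day 4 library above it, and the number of nuclei with both genes stands in brackets. The dark cells join T5L1, ATHB8, ACL5 and LHL3, with ratios of 10.3 and 11.7 for T5L1 and ACL5, and no pair with MOL1 exceeds 1.92.

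Genes that the rule did not use were then compared between the members and all other nuclei of the library. Among 12213 genes with at least 200 UMIs at day 3, 272 were at least 2-fold higher in the members (2.23% of the genes) and 480 at least 2-fold lower (3.93%). At day 4, 264 of 12037 genes were higher (2.19%) and 646 lower (5.37%). In both libraries at once, 193 of 11641 genes were higher (1.66%) and 314 lower (2.70%), and 0 genes were higher in one library and lower in the other. The genes shared by both libraries were 71.0% of those higher at day 3 and 73.1% of those higher at day 4. Genes that go with the rule genes are found higher by construction, so that these counts describe the members and test nothing. The median log2 ratio over all genes was -0.03 in both libraries, which is the level against which the lists below are read.

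Of 31 further regulators of the procambium, 20 had enough UMIs in each library, and 10 were at least 2-fold higher in the members at day 3 and 11 at day 4, beside 2.23% and 2.19% of all genes. None was at least 2-fold lower. The median log2 ratio of the list was 1.02 at day 3 and 1.14 at day 4. Summed over the 31 genes, the list was at 4708 CPM in the members of day 3 and 2463 CPM in the other nuclei. At day 4 it was at 5420 and 2616 CPM. In non-member nuclei chosen by 8 phloem-side genes, called phloem-side nuclei here, it was at 3593 and 3902 CPM. In nuclei left out only for a CESA UMI it was at 4223 and 3573 CPM. So part of the high level is shared with the nuclei most like the members. ACL5 had 542 UMIs in the members of day 3, at 547 CPM (502 to 595), against 21.0 CPM (18.3 to 24.0) in the other nuclei. At day 4 it had 435 UMIs, at 469 CPM (426 to 515) against 15.5 CPM. ACL5 makes thermospermine, a polyamine that holds back the differentiation of xylem vessels, and its log2 ratio was 4.64 and 4.83. It was detected in 122 members of day 3 and in 98 of day 4, with at most 44 and 26 UMIs in 1 nucleus. After thinning it was detected in 23.0% of the members at day 3 (18.7 to 27.6) and 18.5% at day 4 (14.7 to 22.8), against 0.686% and 0.881% of epidermis nuclei, which should lack it. These epidermis nuclei were the non-members in the top 10% by 8 epidermis genes with at least 2 of those detected. Their median depths were 1749 and 1698 UMIs. Leaving out the members takes nuclei high in the rule genes out of this set. Without thinning the shares of the members were 33.3% and 25.9%. In barcodes of day 3 with at most 100 UMIs, which hold mostly free RNA, ACL5 was at 62.2 CPM (48.0 to 79.3).

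The bHLH genes SACL3 and SAC51, whose translation thermospermine promotes, were higher too. SACL3 was at 232 against 58.5 CPM at day 3 and at 297 against 54.8 CPM at day 4, and SAC51 had log2 ratios of 1.41 and 1.30. T5L2, a close relative of T5L1 that the rule did not use, was at 169 CPM (144 to 196) against 23.1 CPM at day 3 and at 222 CPM (193 to 255) against 25.8 CPM at day 4. It shares sequence with T5L1, and how reads common to both were counted is not given in the sources used here. LHW, the partner of these proteins, was close to even, at 226 against 166 CPM and 219 against 188 CPM. The cytokinin gene LOG4, the classical target of the pair, had under 200 UMIs in each library. It was at 7.07 against 1.59 CPM at day 3, a log2 ratio of 1.64 (0.63 to 3.52), and at 4.31 against 1.83 CPM at day 4. LOG3, its relative, was at 40.4 against 13.0 CPM at day 3, a ratio of 1.57 (1.09 to 2.16), and at 16.2 against 12.7 CPM at day 4, a ratio of 0.32.

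BRL2, a vascular member of the brassinosteroid receptor family, was at 162 CPM (137 to 189) in the members of day 3 against 19.5 CPM in the others, and at 325 CPM (289 to 363) against 25.0 CPM at day 4. SHR, a transcription factor made in the stele that moves to the neighbouring layer in roots, was at 187 against 54.7 CPM and at 197 against 45.0 CPM. After thinning SHR was detected in 19.1% of members, 14.7% of phloem-side nuclei and 5.38% of all other nuclei at day 3. At day 4 the shares were 19.0%, 10.3% and 3.89%. Among the class III HD-ZIP relatives of ATHB8, CNA was at least 2-fold higher in both libraries, at 348 against 144 CPM and 399 against 173 CPM. REV had log2 ratios of 0.83 and 0.78 and PHB of 0.37 and 0.28. PHV lay slightly below the other nuclei, at -0.52 and -0.15. The small inhibitor of these proteins encoded by ZPR1 had ratios of 1.60 and 1.08, but at day 4 13 of its 61 UMIs sat in 1 nucleus, without which the ratio was 0.75. LBD4, known from the border of phloem and procambium, was at 80.8 against 36.3 CPM and at 87.4 against 37.0 CPM. It was at 103 CPM at day 3 and 144 CPM at day 4 in the non-member nuclei chosen by 8 phloem-side genes, above its level in the members. The meristem genes ANT and BP were even at day 3, with log2 ratios of -0.01 each, and stood at 0.36 and -0.50 at day 4. WOX14, a relative of WOX4, and the PXY-like receptor genes PXL1 and PXL2 had at most 2 UMIs in the members of a library.

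Genes of auxin transport and response were read next. Of 20 auxin genes 12 had enough UMIs, of which 5 were higher and 1 lower at day 3 (2.23% and 3.93% of all genes) and 7 higher and 1 lower at day 4 (2.19% and 5.37%), with median log2 ratios of 0.85 and 1.42. MP is counted in this list and in that of the procambium. The influx carrier gene LAX2 was at 502 CPM (459 to 548) in the members of day 3 against 68.2 CPM in the others, and at 549 CPM (502 to 599) against 74.4 CPM at day 4. LAX2 was detected after thinning in 30.3% of members at day 3 and 30.2% at day 4, against 1.60% and 4.41% of epidermis nuclei, and without thinning in 47.3% and 47.9%. The influx carrier gene AUX1 had log2 ratios of 2.21 and 2.32. PIN6, an auxin transporter of the endoplasmic reticulum, was at 184 against 47.0 CPM and at 211 against 39.0 CPM. So 3 of the transport genes with enough UMIs, LAX2, AUX1 and PIN6, were at least 2-fold higher in both libraries. Other transport genes went either way, read without the member nucleus richest in the gene. PIN3 had ratios of 1.61 and 1.78, LAX1 of 0.72 and 0.77 and PIN4 of 0.35 and 0.19. PIN7 had -0.78 and -0.98, ABCB19 -0.56 and -0.79 and LAX3 -1.39 and -1.11. MP itself was at 665 CPM (615 to 718) against 398 CPM at day 3 and at 799 CPM (743 to 859) against 307 CPM at day 4, log2 ratios of 0.74 and 1.38. Its repressors IAA13 (2.68 and 2.77) and BDL (1.42 and 1.51) were higher in both libraries. PID, a kinase that steers auxin transport, was the lower gene, at 64.6 against 154 CPM and at 43.1 against 141 CPM.

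**Figure D3:**
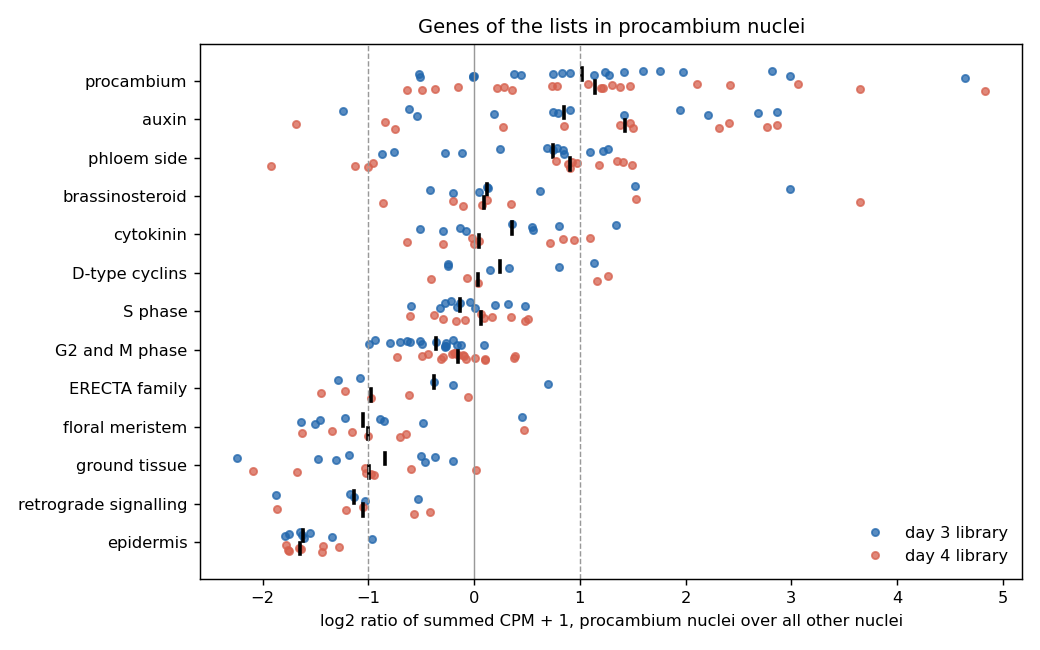
Log2 ratio of summed CPM + 1 in the procambium nuclei over all other nuclei for each gene of 13 lists with enough UMIs, in the day 3 library (blue) and the day 4 library (red). Black bars are list medians and dashed lines mark 2-fold. The procambium and auxin genes lie mostly to the right and reach 4.83 for ACL5 at day 4, and the 8 epidermis genes lie between -1.79 and -0.97.

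VND1, VND2 and VND3, NAC genes of the family that switches on vessel formation, had under 200 UMIs in each library but stood high in the members. VND1 had 104 UMIs in the members of day 3 and 47 in all other nuclei, at 105 CPM (85.8 to 127) against 4.66 CPM in the other nuclei, a log2 ratio of 4.23. At day 4 it had 86, at 92.8 CPM (74.2 to 115) against 4.10 CPM. VND2 was at 91.9 against 10.6 CPM and at 116 against 5.82 CPM, and VND3 at 55.5 against 3.37 CPM and at 46.4 against 3.02 CPM. After thinning VND1 was detected in 8.20% of the members of day 3 and 6.35% of those of day 4, against 0.229% and 0.220% of epidermis nuclei. Other genes of vessel formation were rare in the whole library, members or not. VND7 had 2 UMIs in the members of day 3, at 2.02 against 1.78 CPM in the other nuclei, and 9 at day 4, at 9.71 against 2.16 CPM, a log2 ratio of 1.76 (0.85 to 3.37). VND6 was at 5.05 against 4.26 CPM at day 3 and at 8.63 against 3.99 CPM at day 4, with intervals of the log2 ratio that include 0 in both. Both genes are known as switches of vessel formation in the root. Without the member nucleus richest in the gene, the log2 ratios were -0.38 and -0.23 for VND6 and -0.47 and 1.25 for VND7. With the 8% of nuclei with the most UMIs left out, they were 0.74 and 1.60 for VND6 and 1.30 and 2.65 for VND7. So with these few UMIs the direction hung on single nuclei, except for VND7 at day 4. The protease gene XCP2, which acts late in vessel cells, also had under 200 UMIs in each library. Its summed level was lower in the members, at 5.05 against 16.0 CPM and at 3.24 against 17.7 CPM, log2 ratios of -1.49 and -2.14. Without thinning it was detected in 1.09% of members and 1.04% of other nuclei at day 3. At day 4 these shares were 0.79% and 0.96%. After thinning it was found in 2 members of day 3 and 1 of day 4. Its log2 ratios were -0.99 and -0.18 without the 8% of nuclei with the most UMIs. They were -2.07 and -2.56 without the member nucleus richest in it. The part of single nuclei in this was not tested. MYB46, a regulator of wall genes, had 3 UMIs at day 3 and 0 at day 4, against 4.56 and 0.755 CPM in the other nuclei. SND1 had none in either library. The rule had already removed nuclei with a CESA UMI, so that the low level of genes that follow the CESA genes is tied to it. In the 20 nuclei of day 3 and 17 of day 4 that met the rest of the rule but held a CESA UMI, XCP2 was at 99.2 CPM (45.4 to 188) and 536 CPM (362 to 765), beside ACL5 at 452 and 518 CPM.

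The members differed among themselves in ACL5 and the VND genes. Members with a T5L1 UMI held ACL5 at 888 CPM (795 to 990) at day 3 and those without at 342 CPM (298 to 392), and at day 4 the levels were 977 and 238 CPM. VND1, VND2 and VND3 summed were at 487 CPM (419 to 564) with T5L1 and 111 CPM (86.7 to 141) without it at day 3, and at 604 and 97.3 CPM at day 4. For ATHB8 the contrast was wider, with ACL5 at 785 CPM with it and 128 CPM without it at day 3 and at 654 and 116 CPM at day 4. WOX4 ran the other way. Members with WOX4 held ACL5 at 157 CPM (120 to 203) and those without at 785 CPM (716 to 858) at day 3, and at 189 and 605 CPM at day 4. A member without WOX4 must carry at least 2 of the other rule genes, so part of such a split is set by the rule.

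The same reading was therefore made over all nuclei of a library with a UMI of 1 rule gene, members or not, which no other rule gene had chosen. ACL5 was at 376 CPM (340 to 416) in the 238 T5L1 nuclei of day 3 and at 597 CPM (533 to 667) in the 174 of day 4. In the 265 WOX4 nuclei of day 3 it was at 70.7 CPM (54.9 to 89.6), near its level of 68.0 CPM over all nuclei. In the 213 WOX4 nuclei of day 4 it was at 96.8 CPM (73.7 to 125), against 56.8 CPM over all. The 3 VND genes summed were at 32.2 CPM in WOX4 nuclei of day 3 and at 26.3 CPM in those of day 4, with intervals that include their levels of 39.5 and 35.0 CPM over all nuclei. In T5L1 nuclei they were at 260.2 CPM (229.9 to 293) and 441 CPM (387 to 502). LAX2 was above its level over all nuclei in both, at 315 CPM in T5L1 nuclei and 223 CPM in WOX4 nuclei of day 3 against 107 CPM. So LAX2 stood above its overall level with either gene, and the VND genes with T5L1 and not with WOX4. The median depth was 2508.5 UMIs in T5L1 nuclei and 2182 in WOX4 nuclei of day 3, and 2219.5 and 2133 UMIs at day 4, and the part of depth in these levels was not tested.

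**Figure D4:**
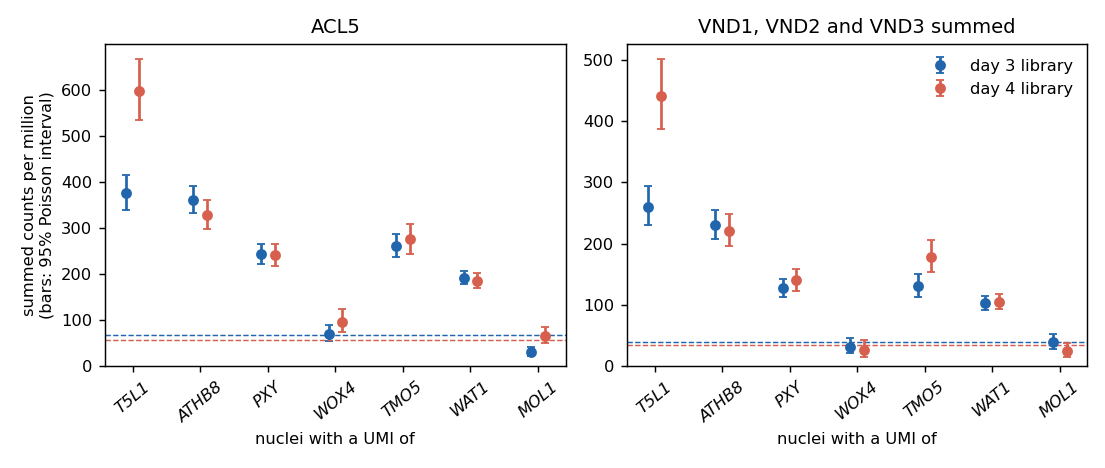
Level of ACL5 (left) and of VND1, VND2 and VND3 summed (right) in all nuclei with a UMI of each rule gene, in CPM with 95% Poisson intervals, for day 3 (blue) and day 4 (red). Dashed lines give the level over all nuclei of the library. T5L1 and ATHB8 nuclei lie highest, and WOX4 and MOL1 nuclei lie closest to the dashed lines.

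Members with more rule genes also held more ACL5, from 164 CPM in the 119 members with 2 rule genes to 854 CPM in the 53 with at least 5 at day 3, and from 105 to 1151 CPM at day 4. Their median depth went up from 1707 to 2839 UMIs and from 1649 to 3339 UMIs, and the part of depth in this was not tested. SMXL5 took the opposite course at day 4, from 346 CPM (274 to 431) with 2 rule genes to 212 CPM (149 to 294) with at least 5, intervals that overlap.

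Genes of the phloem side were measured for comparison. SMXL5, SMXL4 and SMXL3 are needed for phloem formation and mark the outer part of the cambium, opposite to PXY. SMXL5 was at 222 CPM (194 to 253) in the members of day 3 against 138 CPM in the others and at 280.4 CPM (247 to 317) against 164 CPM at day 4, under 2-fold in both. It was detected after thinning in 16.7% of members at day 3 (13.0 to 20.9) and 20.4% at day 4 (16.4 to 24.8), against 10.8% and 11.3% of the other nuclei and 2.52% and 3.08% of epidermis nuclei. Without thinning the members had 31.7% and 34.9%. PXY and SMXL5 met in 54 nuclei of day 3 and 73 of day 4, 1.70 times the share over all nuclei in both (1.28 to 2.22 and 1.33 to 2.14). ACL5 and SMXL5 met in 16 nuclei of each library, at ratios of 1.01 (0.58 to 1.65) and 1.06 (0.61 to 1.72). Among the nuclei chosen by 8 phloem-side genes, including SMXL5, 70 were members at day 3 (19.1% of the members) and 72 at day 4 (19.0%). The same choice took 286 of the 4031 other nuclei at day 3 and 321 of the 4167 at day 4, smaller shares than of the members.

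Of 15 phloem-side genes 13 had enough UMIs, of which 3 were higher and 0 lower at day 3 (2.23% and 3.93% of all genes) and 4 were higher and 3 lower at day 4 (2.19% and 5.37%). Higher in both were SMXL4 (1.26 and 1.41), the DOF transcription factor gene DOF2.1 (1.22 and 1.49) and the phosphatase gene CVP2 (1.10 and 1.18), and TMO6, another DOF gene and target of MP, was added at day 4 (0.78 and 1.35). The ligand genes of PXY were not higher in the members in either library. CLE41 was at 40.4 CPM (28.8 to 55.0) in the members of day 3 and 49.1 CPM in the others, and at 24.8 CPM (15.7 to 37.2) and 55.4 CPM at day 4. CLE44 was at 38.4 CPM (27.1 to 52.6) and 65.6 CPM at day 3 and at 16.2 CPM (9.06 to 26.7) and 63.8 CPM at day 4. Both genes were at least 2-fold lower in the members at day 4, where the third lower gene was BRX, at 19.4 against 39.9 CPM. In the non-member nuclei chosen by the phloem-side genes, CLE41 was at 89.7 CPM at day 3 and 108 CPM at day 4.

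Markers of the phloem itself were rare. Of 15 genes 1 had 200 UMIs, APL, at 24.2 against 20.5 CPM at day 3 and 24.8 against 29.5 CPM at day 4. NEN4 and NAC45 had 0 UMIs in the members of both libraries, and the summed list was at 131 CPM in the members of day 3 against 89.4 CPM in the others and at 102 against 140 CPM at day 4. The sucrose carrier gene SUC2 had 22 UMIs in the members of day 3, of which 17 came from 1 nucleus. Without that nucleus its log2 ratio at day 3 moved from 0.69 to -1.22. For APL, leaving out the member nucleus with the most of its UMIs moved the ratio from 0.23 to -0.21 at day 3. At day 4 it moved from -0.24 to -0.65. The part of single nuclei with phloem transcripts in the summed list was not tested.

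The counts of the cytokinin, brassinosteroid and ERECTA lists stand beside 2.23% of all genes higher and 3.93% lower at day 3 and 2.19% and 5.37% at day 4. Of 9 cytokinin genes with enough UMIs, the response regulator gene ARR4 was the 1 higher gene in both libraries, at 118 against 46.1 CPM and 142 against 66.3 CPM, and none was lower. Of 8 brassinosteroid genes 2 were higher in both libraries, BRL2 and DWF4, a rate-limiting enzyme of brassinosteroid synthesis, which was at 246 against 84.9 CPM and 318 against 110.3 CPM. BRI1, the main receptor, had ratios of -0.42 and -0.86. In the ERECTA list, named for receptors that act in the stem, 2 of 5 genes were lower in each library and none was higher. ERL1 and ERL2 were lower in both libraries, with ratios of -1.29 and -1.08 at day 3 and -1.45 and -1.22 at day 4, and ER was at -0.38 and -0.61.

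The members carried transcripts of dividing cells at summed levels less than 2-fold from those of the other nuclei. The medians were -0.13 and 0.06 for S phase and -0.36 and -0.16 for G2 and M. Summed, the G2 and M list was lower in the members, at 3851 CPM (3730 to 3975) against 4871 CPM at day 3. At day 4 it was at 3115 CPM (3002 to 3231) against 3552 CPM. The S phase list was at 1667 against 1828 CPM and at 1521 against 1535 CPM. None of 11 S phase genes and none of 17 G2 and M phase genes was 2-fold apart in either library. Of all genes 2.23% were higher and 3.93% lower at day 3, and 2.19% and 5.37% at day 4. With so few genes in the lists, these counts alone say little. Of the D-type cyclins, which carry cells into division, CYCD4;1 was higher in both libraries (1.13 and 1.27) and CYCD3;1 at day 4 (0.80 and 1.16).

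Other cell types were measured by their markers. Of 8 epidermis genes 7 were at least 2-fold lower in the members at day 3 and 8 at day 4, beside 3.93% and 5.37% of all genes, with median ratios of -1.62 and -1.64. None of the 8 was at 0 in the members. Their sum was 1335 CPM in the members of day 3 (1264 to 1409) and 4027 CPM in the others, and 3674 CPM in the free RNA of that library. At day 4 it was 1216 CPM in the members and 3510 CPM in the others. In the phloem-side nuclei the sum was 1455 CPM at day 3 and 1558 CPM at day 4, so the low level was shared with them. PDF1, a protein of the outer cell layer, was at 604 CPM in the members of day 3 and at 474 CPM in those of day 4, and was detected after thinning in 28.4% and 26.2% of them. In phloem-side nuclei these shares were 27.3% and 29.6%. Only 3 members of day 3 and 1 of day 4 also met the choice of the epidermis nuclei, from which members were left out. Of the floral meristem genes 4 of 8 were lower at day 3 and 4 of 7 at day 4, none was higher, and AP3, which specifies petals and stamens, was at 70.7 against 222 CPM and at 68.0 against 137 CPM. STM, a gene of the undifferentiated meristem, was the exception, with ratios of 0.45 and 0.47. Of the 8 ground tissue genes 4 were lower in each library.

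Outside the lists, the 15 genes with the largest ratio in both libraries had log2 ratios from 3.00 to 4.92. AT2G22620, annotated as a rhamnogalacturonate lyase and so linked to the pectin of the cell wall, was at 576 CPM (interval 530 to 626) against 18.1 CPM at day 3 and at 496 against 17.4 CPM at day 4. LHL3 (AT1G64625), a relative of LHW by its name LONESOME HIGHWAY LIKE 3, was at 177 CPM against 9.21 CPM and at 160 against 6.79 CPM. LHL3 was detected in 94 members of day 3 and 83 of day 4. It met ACL5 in 25 and 23 nuclei, at ratios of 10.3 (6.69 to 15.3) and 11.8 (7.47 to 17.7), and it met WOX4 at 4.11 (2.05 to 7.35) and 5.86 (3.12 to 10.0). WOX4 and ACL5 met at 2.03 (0.97 to 3.73) and 1.79 (0.72 to 3.69), and the difference between these pairs was not tested. AGAL2, an alpha-galactosidase, was at 587 against 40.4 CPM and at 584 against 33.5 CPM. HAT14, a class II HD-ZIP gene, had ratios of 3.63 and 3.78. The cytoskeletal motor genes XIF (a myosin, 3.89 and 4.26) and KP1 (a kinesin, 3.31 and 3.53) and the receptor kinase gene MRH1 (3.36 and 3.00) were in this set. So were SETH6 and AT5G48800, both of the NPH3 family, with ratios of 3.77 and 3.55 and of 3.30 and 3.23. The others were AT5G50090, AT3G53100, AT3G18280, AT1G23340, AT1G69080 and AT1G47410. Of the 181 UMIs of AT3G18280 in the members of day 3, 55 came from 1 nucleus, without which its ratio was 3.09 in place of 3.57. The 5 lowest were AIG1, GER1, CRK42, RBCS1B and SPCH, with at most 16 UMIs in the members of a library. SPCH, which starts the stomatal lineage, was at 16.2 against 72.5 CPM at day 3 and at 15.1 against 74.5 CPM at day 4. In phloem-side nuclei SPCH was at 10.3 and 31.6 CPM.

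Day 4 was then set against day 3 within the members. Of 10211 genes with at least 50 UMIs over the members of both days, 118 were at least 2-fold higher at day 4 (1.16%) and 97 at least 2-fold lower (0.950%), and the median log2 ratio was 0.06 in the members and 0.09 in the other nuclei. Of the 118 genes 19 were also at least 2-fold higher in the other nuclei, and of the 97 genes 3 were also lower there. Of the procambium list 21 genes could be compared, of which BRL2 was at the 2-fold limit with a ratio of 1.00 (0.34 in the other nuclei) and LOG3 and AHP6 were lower. AHP6, an inhibitor of cytokinin signalling, had -1.29 in the members and -1.17 in the others. LOG3 had 40 UMIs at day 3 and 15 at day 4, a ratio of -1.27 against -0.03 in the other nuclei. MP had 0.26 (0.11 to 0.42) in the members and -0.37 (-0.44 to -0.30) in the others. ACL5 had -0.22 and -0.41, and LAX2 0.13 and 0.12.

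Genes of the mitochondrial stress response were among those higher at day 4. All 4 genes of that list with enough UMIs were at least 2-fold higher at day 4, beside 1.16% of all genes compared. They were AOX1A (1.49), UPOX (1.42), SOT12 (1.40) and the transporter gene MATE (2.89). In the other nuclei they had 1.03, 1.29, 1.48 and 2.78. Within each library the list stood low in the members, with 4 of 5 genes at least 2-fold lower than in the other nuclei at day 3 and 3 of 5 at day 4. Of all genes 3.93% were lower at day 3 and 5.37% at day 4. Of the 103 UMIs of MATE at day 4, 30 came from 1 nucleus. The study's supplementary list of cluster markers, made on day 4 nuclei, holds AOX1A, UPOX, SOT12 and MATE, so they are no independent reading of it. The transporter genes ABCB4 (3.15 in the members and 2.35 in the others) and ABCC3 (2.39 and 1.72) and the gene AT4G37030 (2.06 and 1.45) also had large ratios in both. AT2G32870 had the largest ratio, 3.70 against 0.33 in the other nuclei, from 5 to 72 UMIs, but it was found in 5 members of day 4 and 37 UMIs came from 1 of them.

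The genes with the lowest ratios of day 4 over day 3 differed in the other nuclei by less than 2-fold. AAP7, an amino acid permease gene, had 50 UMIs in 19 members of day 3 and 8 UMIs in 8 members of day 4, a ratio of -2.42 against -0.05 in the other nuclei. When members were chosen after thinning, its ratio was -0.54. AT5G22580 went from 119 to 25 UMIs (-2.11 against -0.40), and TCH4, a xyloglucan enzyme induced by touch, from 70 to 21 UMIs (-1.60 against -0.47). PAR1, a gene of the shade response, went from 75 UMIs in 53 members to 23 UMIs in 20, a ratio of -1.57 against -0.71. The sugar transporter gene SWEET10 had 81 UMIs at day 3, but 39 of them sat in 1 nucleus, without which its ratio went from -2.10 to -1.79. Without the member nucleus richest in the gene, the ratios were -2.28 for AAP7, -1.97 for AT5G22580, -1.55 for TCH4 and -1.65 for PAR1. The part of further single nuclei was not tested. Whether such differences come from the day or the library cannot be told apart with 1 library per day.

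**Figure D5:**
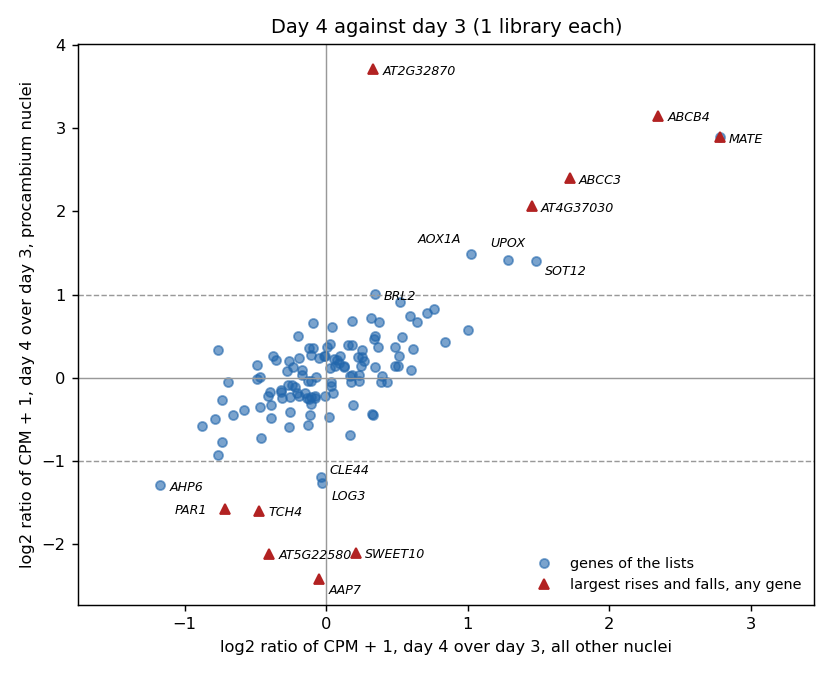
Log2 ratio of CPM + 1 at day 4 over day 3 in the procambium nuclei (vertical axis) against the same ratio in all other nuclei (horizontal axis), for list genes (blue circles) and for the 5 highest and 5 lowest ratios of the members (red triangles). Dashed lines mark 2-fold in the members. MATE, ABCB4 and ABCC3 lie high on both axes, and AAP7, at -2.42, lies low on the vertical axis alone.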

How the data were processed

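Counts of UMIs per gene and barcode were deposited by the authors, made with Cell Ranger 3.1.0 per the submitters' processing notes, for 36917 gene identifiers. The study names the Araport11 annotation. The genome sequence file and the treatment of intron reads are not given in the sources used here, so no coordinates or sequences are printed. The day 3 file held 652188 barcodes with a UMI and the day 4 file 7716 called nuclei. No correction for free RNA and no doublet removal is stated, and no doublet caller was run. Nuclei with at least 1000 nuclear genes were kept, with organelle genes left out. The study used the same minimum and states more nuclei than these for each library, above all for day 4, which was not resolved, so that the top 10% here is of a smaller set. Their depth was 11083512 UMIs at day 3 and 10202530 at day 4.

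UMIs were summed over members and over all other nuclei of the library, scaled to CPM and compared as log2((CPM + 1) ratio). Genes needed 200 UMIs in a library, or 50 UMIs over the members of both days. No test was run, with 1 library per day. Intervals were exact Poisson and Clopper-Pearson intervals of 95%. Python 3.11.15, numpy 2.4.6, scipy 1.17.1, pandas 2.3.3 and matplotlib 3.10.9 were used, and the scripts were tested on simulated data. Symbols came from 15 gene lists and from a table of TAIR 10.1, which matched 36632 identifiers. The members, the rule and the lists were chosen with earlier results of these data known. Named are the genes of the lists and, outside them, the 15 with the largest and the 5 with the lowest ratio in both libraries and the 5 largest rises and falls between days. The epidermis nuclei, the splits of members by a rule gene and the readings over all nuclei with 1 rule gene and over pairs of genes were added after seeing the data. Alternatives changed the minimum of genes, the members, the scaling, the pseudocount, the filter and the depth of the comparison nuclei. The values of 1 list gene are not reported here.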

Additional observations from a re-analysis of the deposited data

Results flagged for a closer look

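Genes of the lists were singled out where the counting intervals of 2 ratios lay on opposite sides of 0. These differences were not tested, since each day has 1 library, and no cause was tested.

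MP had a log2 ratio of day 4 over day 3 of 0.26 in the procambium nuclei and -0.37 in the other nuclei. The values with and without the nucleus richest in MP were 0.26 and 0.27.

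SUC2 was at 0.69 in members over other nuclei at day 3 and at -1.14 at day 4, and its ratio of day 4 over day 3 was -1.27 in the members and 0.56 in the others. One nucleus held 17 of its 22 UMIs at day 3. Without the richest nucleus of each library the ratios over other nuclei were -1.22 and -1.50 and the ratio between days was 0.29.

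SWEET12, a sucrose exporter gene of the phloem, was at 1.63 in members over other nuclei at day 3, with 13 UMIs in 6 nuclei, and at -1.82 at day 4, with 1 UMI. Its ratio between days was -2.76 in the members and 0.69 in the others. FTIP1, which helps move the flowering signal FT into the phloem, had 10 and 1 UMIs and ratios between days of -2.42 and 0.64. ZPR2 had 33 and 12 UMIs and ratios of -1.30 and 0.68. With the 8% of nuclei with the most UMIs left out of each library, the ratios between days in the members were -2.15 for SWEET12, -0.64 for FTIP1 and -0.83 for ZPR2.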

How the results depend on the processing

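Results were recomputed under 15 alternatives, though not every result under each of them. The alternative of leaving out the member nucleus with the most UMIs of a gene was the 1 chosen after seeing the data. The pair ratios, the splits of members and the readings over all nuclei with 1 rule gene were recomputed under none of them. No paired analysis was possible because each day has 1 library and no result comes from a test, and for the same reason no replicate could be left out. The held-out reading stayed at 6 of 7 genes under the alternatives applied to it, which changed the minimum of genes, the members or the deepest nuclei. Neither it nor the share with SMXL5 was recomputed with members chosen after thinning. The held-out reading was also not recomputed with another pseudocount, scaling or weighting by depth. The counts of procambium genes stayed within 1.5 times under every alternative that bore on them. Of 157 single-gene ratios of 2-fold or more, 101 stayed there under every alternative. The cause of the changes below was not tested.

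The number of members follows the settings, from 366 at day 3 to 701 with a minimum of 500 genes, 167 with 1500, 196 with the top 5% and 608 with the top 20%, and from 378 at day 4 to 592, 168, 203 and 619. Genes higher in the members went from 272 to 1114 with no minimum on UMIs and 420 with 0.5 of it at day 3, and from 264 to 1045 with no minimum at day 4. Genes lower went from 480 at day 3 to 255 with a pseudocount of 10 CPM, 1622 with no minimum, 739 with 0.5 of it, 898 with the top 5% and 157 with the top 20%, and from 646 at day 4 to 364, 2048 with no minimum, 982 and 310. With no minimum the procambium median of day 4 was 0.74 in place of 1.14. The other lists together had 12 genes higher and 22 lower at day 3, with 24 higher under no minimum and 9 lower with the top 20%, and 16 and 25 at day 4, with 25 higher and 41 lower under no minimum, 8 lower with the top 20% and 14 lower when members were chosen after thinning. The share with SMXL5 was 31.7% at day 3 and 34.9% at day 4 without thinning, and 12.2% at day 3 with the top 5%. Genes higher at day 4 went from 118 to 40 with a pseudocount of 10 CPM, 1709 with no minimum and 277 with 0.5 of it, and genes lower from 97 to 37, 1704 and 234. GER1 turned to 0.82 at day 3 with the top 20%, and AAP7 to 0.17 at day 4 over other nuclei when members were chosen after thinning. Depth limits every gene under 200 UMIs, the VND genes included.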
